A study of Mus musculus with 8 samples.

Results

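The Ighv genes are the variable segments of the immunoglobulin heavy chain. Their transcripts were followed in bulk RNA sequencing of ileum, the last part of the small intestine, from mice given irinotecan, a topoisomerase I inhibitor used against cancer that injures the gut lining. The 8 libraries came from 4 wild-type mice (genotype Gsdme+/+, here WT) and 4 mice deficient in Gsdme (genotype Gsdme-/-, here Gsdme_KO or KO). The product of Gsdme is gasdermin E, which once cleaved opens pores in the plasma membrane and drives pyroptosis, a lytic form of cell death. Every mouse of both genotypes had received irinotecan, so untreated ileum is not part of the comparison. No source used here gives strain, age, sex, dose or time after treatment, or the part of the gene that the deficient allele lacks. Libraries go by the column names of the deposited table, which are WT3, WT5, WT7 and WT8 for wild type and KO4, KO5, KO7 and KO8 for the deficient mice. Values listed for a genotype follow that sequence. The question addressed is how the 2 genotypes compare after the same drug.

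The table has 55487 rows, of which 183 carry a symbol starting with Ighv, 113 of them annotated as variable genes and 70 as pseudogenes. The segments described were chosen by their measured level, a mean normalized count of at least 10 over the 8 libraries. A normalized count is the number of reads assigned to a gene, divided by 1 size factor per library that corrects for depth. The rule selected 78 segments and left out 105 rows, the 70 pseudogenes and 35 genes. The 2 members of lowest mean were Ighv5-12 at 10.01 and Ighv9-1 at 10.1, and the 2 rows just outside were Ighv1-31 at 9.81 and Ighv1-62-2 at 9.71. The 78 members held between 99.2% and 99.8% of the summed Ighv value of each library. Of the members, 69 had a mean of at least 10 in both genotypes, 6 had a WT mean under 10 and 3 had a KO mean under 10. Without its highest library, 9 members would have had a mean under 10.

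A developing B cell joins 1 of many V segments to a D and a J segment, and all descendants of that cell carry the same joined gene. The V segment encodes most of the antigen-binding domain, up to and including part of the third complementarity-determining region. Plasma cells, the antibody-secreting end stage of the lineage, transcribe their joined gene at a very high rate, and in the lamina propria of the small intestine most of them secrete IgA. In a bulk sample, the reads on each V segment therefore reflect both how many cells use it and how much heavy chain RNA each cell holds, so fewer cells and less RNA per cell cannot be told apart.

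All 78 members lie on the minus strand of chromosome 12 in GRCm38, between positions 113588267 and 116000461, a stretch of 2412 kb. They belong to 13 of the 16 families named by the first number of the symbol, and 37 of the 78 belong to Ighv1. To show how unlike the abundant segments are, the framework 3 end of each segment that led at least 1 library is printed here, 117 bases up to and including the tgt codon of the second conserved cysteine. The sequences are from the GENCODE M21 transcripts, 5′ to 3′ on the coding strand, and capitals mark bases that differ from Ighv1-81 at the same position.
Ighv1-81: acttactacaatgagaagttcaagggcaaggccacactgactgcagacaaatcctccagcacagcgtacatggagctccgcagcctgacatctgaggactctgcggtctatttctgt
Ighv1-5: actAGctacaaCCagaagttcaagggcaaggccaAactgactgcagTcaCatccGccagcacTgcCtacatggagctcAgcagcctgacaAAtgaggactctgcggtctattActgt
Ighv1-53: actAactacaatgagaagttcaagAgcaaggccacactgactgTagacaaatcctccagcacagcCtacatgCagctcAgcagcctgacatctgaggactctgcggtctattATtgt
Ighv1-66: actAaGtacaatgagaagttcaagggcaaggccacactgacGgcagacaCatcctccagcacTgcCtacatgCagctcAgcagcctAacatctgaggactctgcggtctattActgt
Ighv3-6: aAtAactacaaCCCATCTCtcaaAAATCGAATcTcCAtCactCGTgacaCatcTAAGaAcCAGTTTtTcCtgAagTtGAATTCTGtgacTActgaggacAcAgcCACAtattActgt
Ighv5-17: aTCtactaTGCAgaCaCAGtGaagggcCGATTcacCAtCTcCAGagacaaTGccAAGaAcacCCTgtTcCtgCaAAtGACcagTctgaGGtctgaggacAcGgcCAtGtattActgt

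The 3 other Ighv1 segments printed are close relatives of Ighv1-81 over this stretch. Ighv1-53 differed at 8 bases (93.2% identity), Ighv1-66 at 10 bases (91.5%) and Ighv1-5 at 14 bases (88.0%). Ighv5-17 differed at 49 bases (58.1% identity) and Ighv3-6 at 59 bases (49.6%). In the annotation, Ighv1-81 spans chr12:115920279-115920712, Ighv1-66 spans chr12:115593110-115593591, Ighv1-53 spans chr12:115158403-115158835 and Ighv1-5 spans chr12:114513330-114513807. Ighv3-6 spans chr12:114288152-114288582, and Ighv5-17, closest to the D segments of the 6, spans chr12:113859149-113859670. Over 285 bases ending at the same codon, the median identity was 86.3% for pairs of members in the same family and 60.7% for pairs in different families. The nearest other Ighv row was at a median of 95.8% identity, with a range of 72.6% to 99.3%, and 52 of the 78 members had a neighbour at 95% or above. A median of 21.6% of a member's 50-base stretches occurred in another Ighv transcript, but for 58 of the 78 members no 100-base stretch did. No source used here gives the read length or the treatment of reads that align to several places. Values of the closest pairs are therefore uncertain, above all Ighv1-72 (mean normalized count 384) against Ighv1-62-3 (2.50), at 99.3% identity. Plasma cell transcripts also carry somatic mutations, whose part in the assignment of reads was not tested.

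The 8 libraries held between 15617407 and 23437343 reads in genes, of which 11908 to 31171 were on Ighv rows. Gsdme, the targeted gene, stood at 3376, 2169, 3164 and 2696 normalized counts in the wild-type libraries, and at 113, 187, 634 and 464 in the deficient mice. Every KO library was below every WT library, in accordance with its label (limma log2 fold change -3.32, SE 0.49, adjusted p = 0.786). The epithelial genes Vil1 and Epcam and the ileal enterocyte genes Fabp6, Slc10a2 and Cubn had reads in all 8 libraries. Libraries KO4 and KO5 stood apart. Cubn, an endocytic receptor, was at 167 and 1003 normalized counts there against 3633 to 10658 in the other 6, and Slc10a2, the ileal bile acid transporter, at 7983 and 8955 against 17117 to 25319. The other enterocyte genes set them apart less. Vil1 was at 32151 and 32051 against 36518 or more, and Epcam at 34389 and 36133 against 38894 or more. Fabp6 was at 14739 in KO4 and 22058 in KO5, with WT8 between them at 17519. The summed value of KO4 and KO5 over 15 genes of B cells and lymphoid follicles was 13820 and 8105, against 561 to 775 in the 4 WT libraries, 714 in KO7 and 637 in KO8. The main counts, scores and gene lists are also given without these 2 libraries.

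The amount of heavy chain variable RNA did not separate the genotypes. Summed over all Ighv rows, the normalized counts were 13512 in WT3, 28105 in WT5, 17129 in WT7 and 14062 in WT8. The KO libraries had 16482 (KO4), 23407 (KO5), 22697 (KO7) and 16943 (KO8). The 2 groups overlapped, WT5 being the highest of the 8 and WT3 the lowest. The means were 18202 ± 6791 (SD, n = 4) in WT and 19882 ± 3677 (SD, n = 4) in KO, a log2 ratio of 0.13. The sum ran between 0.203 and 0.325 times the value of Igha, the constant gene of IgA, in every library. The log2 ratio lay between 0.01 and 0.42 when each library was left out in turn and was 0.12 without KO4 and KO5.

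The libraries also differed in how the sum was divided. The effective number of segments, the inverse of the summed squared shares, is the number of equally used segments that would give the same concentration. It was 11.8 in WT3, 12.4 in WT5, 2.41 in WT7 and 8.15 in WT8, against 15.8, 14.5, 16.1 and 17.4 across KO4, KO5, KO7 and KO8. Each KO library was above each WT library, with means of 8.70 ± 4.60 (SD, n = 4) in WT and 15.9 ± 1.19 (SD, n = 4) in KO, a difference of 7.25. No test was made on this score, since the segments were selected with earlier results of these data known. Without WT7, the lowest, the difference was 5.15, and without KO4 and KO5 it was 8.05. Divided by transcript length before the shares were taken, the values gave a difference of 6.84.

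**Figure D1:**
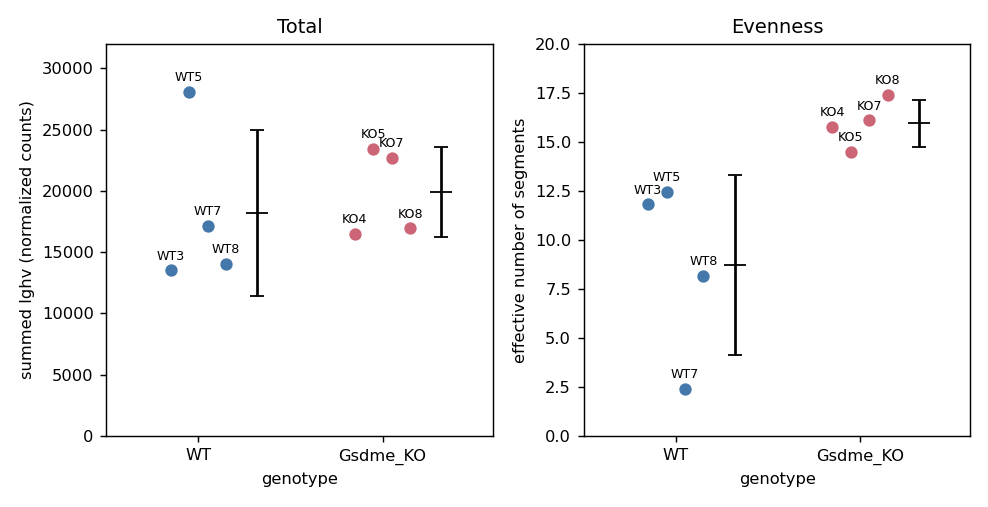
Summed Ighv normalized counts (left) and effective number of Ighv segments (right) in each library, by genotype, with bars at the mean ± SD of 4 libraries. The sums overlap, while the 4 KO libraries lie between 14.5 and 17.4 effective segments and the 4 WT libraries between 2.41 and 12.4.

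Other measures of the same shares separated the genotypes only in part. The 5 largest segments of a library together held 55.6% of the sum in WT3, 54.3% in WT5, 79.2% in WT7 and 66.9% in WT8. In KO4, KO5, KO7 and KO8 they held 43.9%, 46.9%, 48.3% and 43.8%, each below every WT library. In the WT libraries 5, 5, 1 and 3 segments sufficed to reach 50% of the sum, and in the KO libraries 7, 6, 6 and 7 were needed. At 90% of the sum the groups overlapped, with 12 to 30 segments in WT and 26 to 33 in KO. The single largest share also overlapped, with 18.2% to 63.7% in WT and 13.5% to 19.5% in KO. With Ighv1-81 left out of the sum, the effective number was 10.8, 12.4, 14.3 and 7.50 in WT and 21.4, 21.0, 15.6 and 16.7 in KO, so the groups did not overlap without the segment that dominated WT7. That difference was 7.45, and 4.93 without KO4 and KO5. Among the segments outside the Ighv1 family it was 6.57, 6.28, 6.20 and 3.05 in WT and 8.89, 9.04, 8.29 and 9.96 in KO, again without overlap. Within the Ighv1 family it was 5.55, 7.85, 1.65 and 5.30 in WT and 7.86, 6.53, 7.82 and 8.43 in KO, and the groups overlapped.

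Most libraries had a leading segment of their own. Ighv1-5 led WT3 with 19.9% of the sum (Wilson 95% interval 19.2% to 20.6%), Ighv5-17 led WT5 with 18.2% (17.7% to 18.7%) and Ighv3-6 led WT8 with 24.1% (23.5% to 24.8%). Ighv1-81 led 3 libraries, WT7 with 63.7% (63.0% to 64.5%), KO4 with 17.9% (17.3% to 18.4%) and KO5 with 19.5% (19.1% to 19.96%). Ighv1-66 led KO7 with 13.5% (13.0% to 13.98%) and Ighv1-53 led KO8 with 15.5% (15.01% to 16.1%). These intervals cover counting error only, as reads without molecular identifiers are not independent molecules. When the values were divided by transcript length, the leading segment was the same in 8 of the 8 libraries. The 117-base stretches printed above show that the leaders included relatives of Ighv1-81 as well as segments that share little with it.

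**Figure D2:**
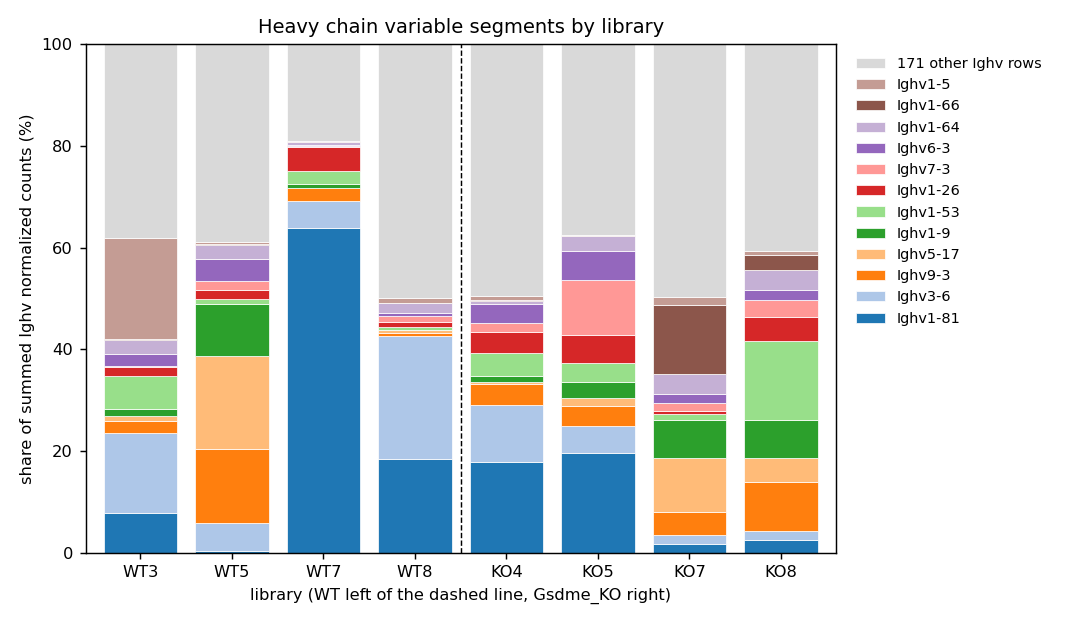
Share of the summed Ighv normalized counts (%) taken by the 12 segments of highest mean and by the other 171 rows together, in each library. Ighv1-81 takes 63.7% of WT7, and the segments that are large differ from library to library in both genotypes.

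Ighv1-81, a segment of the Ighv1 family, had the highest mean of all members. The libraries gave normalized counts of 1065, 72.6, 10918 and 2592 for WT and of 2942, 4568, 381 and 434 in KO. Both the highest and the lowest library were WT, WT7 with 9869 of its 15483 Ighv reads and WT5 with a share of 0.258%. Its log2 fold change was 0.00 (SE 1.47) by limma and -0.80 by edgeR, the direction depending on the tool and on single libraries: it was -1.35 without WT5 and -1.58 without KO4 and KO5.

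Ighv1-5 and Ighv1-66 were each concentrated in a single mouse. Ighv1-5 had 2687 normalized counts in WT3 against 95.3, 35.4 and 121 in the other WT libraries, and 100, 34.5, 347 and 134 in KO. WT3 thus held 75.6% of its value over the 8 libraries, and its log2 fold change of -0.69 (SE 1.25) became 0.60 without WT3. Ighv1-66 had 13.6, 45.3, 4.43 and 9.10 in WT and 45.2, 15.02, 3060 and 509 in KO. KO7 and KO8 were far above the other 6, KO7 alone held 82.7%, and KO4 and KO5 lay within the WT range. By DESeq2 on the recovered reads Ighv1-66 had the smallest adjusted p, 0.09, of the members for which DESeq2 gave one. By limma its log2 fold change was 3.73 (SE 1.52, adjusted p = 0.849).

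Ighv1-53 and Ighv1-9 also had outstanding libraries. Ighv1-53 had 861, 267, 441 and 91.9 in WT and 749, 895, 263 and 2630 in KO, KO8 being the highest and the other KO libraries within or just above the WT range. Ighv1-9 had 204, 2883, 127 and 10.8 in WT and 185, 728, 1726 and 1279 in KO. It was highest in WT5 and high in KO7 and KO8, and lowest in WT8. Ighv1-26 and Ighv1-64 were the most evenly spread of the abundant Ighv1 segments. Ighv1-26 had 255, 530, 811 and 138 in WT and 696, 1282, 130 and 792 in KO. Ighv1-64 had 394, 813, 77.4 and 263 in WT and 103, 692, 895 and 677 in KO, so both were as low in some KO library as in the lower WT libraries.

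Outside Ighv1, Ighv3-6 was the member whose lowest library, at 303, was the highest. Its normalized counts were 2107, 1586, 927 and 3392 for WT and 1837, 1266, 417 and 303 in KO. KO4 and KO5 lay inside the WT range, and KO7 and KO8 below it. The limma log2 fold change was -1.29 (SE 0.61, adjusted p = 0.849). Ighv9-3 had 314, 4081, 440 and 87.7 in WT and 700, 936, 1006 and 1632 in KO. Apart from WT5, every WT library was below every KO library, and WT5 was the highest of all. The limma log2 fold change of Ighv9-3 was 1.11 (SE 0.98), while edgeR, which compares mean counts, gave -0.20.

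Ighv5-17 had 136, 5103, 4.43 and 73.7 in WT and 51.6, 351, 2410 and 789 in KO. The lowest and the highest of the 8 libraries were thus both WT, and the direction again depended on the tool, 1.74 (SE 1.94) by limma and -0.56 by edgeR. Ighv6-3 had 309, 1215, 43.1 and 90.2 in WT and 596, 1331, 403 and 326 in KO. All KO libraries of Ighv6-3 were above all WT libraries but WT5.

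The Ighv7 family was the only family of at least 1 member whose share did not overlap between the genotypes. It held 0.168%, 2.19%, 0.258% and 1.25% of the sum in WT and 2.29%, 10.9%, 9.07% and 3.79% in KO, and the gap between WT5 and KO4 was small against the spread within either group. Its mean was 0.965% in WT and 6.51% in KO, or 6.43% over KO7 and KO8 alone. Different segments carried it. Ighv7-3 had 14.8, 475, 29.9 and 162 in WT and 298, 2523, 355 and 559 in KO, with 57.1% of its value in KO5 (limma log2 fold change 2.99, SE 1.10, unadjusted p = 0.0241, adjusted p = 0.849). Ighv7-1 had 1704 in KO7 and between 5.67 and 83.1 in the 7 other libraries. Ighv7-4, the third member, had 120 in WT5 and 64.5 in KO4 and at most 2.27 elsewhere.

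The Ighv1 family, with 37 members, took the largest share in every library. It held 53.8%, 37.2%, 82.4% and 56.1% in WT and 59.2%, 55.3%, 48.0% and 57.7% in KO. The means were 57.4% ± 18.7 (SD, n = 4) and 55.1% ± 4.98 (SD, n = 4), a difference of -2.30 percentage points, which was 6.05 without WT7, 0.06 without KO7 and -4.50 without KO4 and KO5. Ighv3 ranged from 5.46% to 24.5% in WT and from 2.97% to 12.3% in KO, Ighv5 from 1.78% to 21.1% and from 3.09% to 13.7%, and Ighv9 from 0.759% to 18.5% and from 4.49% to 10.7%. Each of these ranges overlapped between the genotypes. The highest library was WT8 for Ighv3 and WT5 for both others, where Ighv3-6, Ighv5-17 and Ighv9-3 alone held 24.1%, 18.2% and 14.5% of the sum.

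Position along the locus gave the same picture. Split into 3 blocks of 26 members, the block nearest the D segments held 9.06% to 40.9% of the sum in WT and 16.9% to 29.4% in KO. The middle block held 18.1% to 53.8% in WT and 32.7% to 40.6% in KO, and the distal block, which includes Ighv1-81, held 19.6% to 72.6% in WT and 32.7% to 41.7% in KO. In all 3 blocks the KO range lay inside the WT range.

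**Figure D3:**
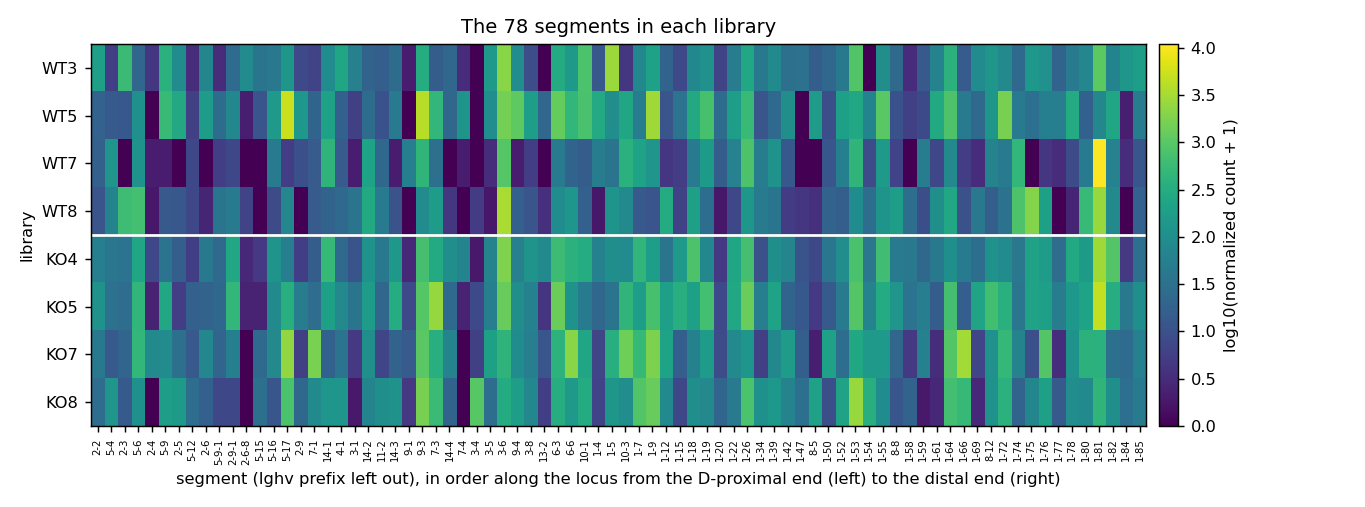
Normalized count of each of the 78 members, as log10(value + 1), with segments in their order along the locus and libraries in rows. Bright cells fall at different segments in different libraries, and WT7 and WT8 have the most dark cells.

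The typical member was also lower in WT7 and WT8. The median normalized count over the 78 members was 48.8 in WT3, 69.1 in WT5, 12.7 in WT7 and 18.2 in WT8, and among the KO libraries it was 63.6, 80.7, 62.1 and 84.4. Of the 78 members, 24 had their lowest value in WT7 alone and 19 in WT8 alone, against 9 in WT3 and 3 in WT5, and for KO4, KO5, KO7 and KO8 the numbers were 0, 1, 5 and 9. In WT7, 36 members were under 10 and 12 were at 0, where 0 allows up to 3 reads or 3.32 normalized counts. Highest values were spread otherwise, with 19 members highest in WT5, 11 in KO7 and 3 in WT7, and 42 in a WT library in all against 36 in a KO library.

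No member passed the test between the genotypes. In the limma fit over all 16352 genes with a mean of at least 10, 0 of the 78 segments had an adjusted p under 0.05 in either direction, the smallest adjusted p being 0.849, and 0.00612% of all tested genes were called higher and 0% lower. At an unadjusted p under 0.05, 9 members were higher in KO and 1 lower, beside 2.61% and 1.77% of all tested genes. In edgeR and in DESeq2 on the recovered reads 0 members were called, beside 0.00612% and 0.055% of all tested genes. At an unadjusted p under 0.05 there were 15 members in each, beside 6.01% of all tested genes in edgeR and 6.94% in DESeq2. DESeq2 gave no p-value for some members, among them Ighv9-3, Ighv1-5, Ighv7-1 and Ighv3-4, so its counts leave them out. For 0 of the 78 segments did all 4 KO libraries lie above all 4 WT libraries, and for 0 did they lie below, beside 1.31% and 1.19% of all tested genes. The p-values rest on 4 mice per genotype and on the spread between them.

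Although none was called, fitted values leaned to KO on the log scale. The log2 fold change, on the scale of log2(normalized count + 1), was above 0 for 67 of the 78 members, beside 50.6% of all tested genes, and below 0 for 11. The median was 1.09 over the members and 0.00 over all tested genes. It was above 1 for 41 members, beside 2.55% of all tested genes, and below -1 for 5, beside 0.905%. This lean was smaller with arithmetic means, which give less weight to libraries near 0. By mean normalized count 48 members were higher in KO and 30 higher in WT, and edgeR gave 48 above 0 with a median of 0.36. Without WT7, 59 of 79 segments were above 0 with a median of 0.81, and without KO4 and KO5, 53 of 76 with a median of 0.95. In the medians of the Ighv families with at least 5 members, Ighv1 was at 1.09 (37 members), Ighv5 at 1.12 (8), Ighv2 at 0.63 (8) and Ighv3 at 1.95 (5). In Ighv3, 3 members were above 0 and 2 below, with its most abundant segment, Ighv3-6, at -1.29. The mean Ighv3 share of the sum went the other way from the median, 13.4% in WT and 7.40% in KO.

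The segments of smallest unadjusted p show how close the groups came. Ighv1-7 had 76.0, 51.2, 221 and 12.4 in WT and 448, 183, 508 and 883 in KO, and only WT7 and KO5 crossed (limma log2 fold change 2.90, SE 0.80, unadjusted p = 0.0058, adjusted p = 0.849). Ighv14-3 had 26.1, 46.4, 1.11 and 9.93 in WT and 139, 320, 18.3 and 115 in KO, with KO7 inside the WT range (2.93, SE 1.09). Ighv1-54 had 0, 65.5, 7.74 and 27.3 in WT and 39.6, 63.8, 145 and 351 in KO, with KO4 and KO5 below WT5 (3.25, SE 1.24).

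On the side of higher values in WT, Ighv1-61 had 63.5, 287, 6.64 and 100 in WT and 41.5, 14.3, 2.44 and 1.83 in KO. WT7 fell among the KO libraries (limma log2 fold change -2.79, SE 1.21, unadjusted p = 0.0469, adjusted p = 0.849). Its nearest relative, Ighv1-52, at 98.6% identity, had 42.0, 188, 55.3 and 15.7 in WT and 95.9, 45.1, 28.0 and 212 in KO. Ighv1-74 had 22.7, 47.6, 474 and 824 in WT and 40.6, 37.5, 62.1 and 18.3 in KO, so that WT7 and WT8 were high and the other 6 libraries lay between 18.3 and 62.1 (-1.96, SE 1.08). Ighv2-6-8 had 86.2, 1.19, 0 and 5.79 in WT and 1.84, 1.502, 0 and 0 in KO (-1.88, SE 1.27). With 89.3% of its value in WT3, Ighv2-6-8 was a member through that library. None of the named segments passed the limma threshold without KO4 and KO5 either, but their fitted log2 fold changes moved. Without these libraries Ighv14-3 was at 1.85, Ighv7-3 at 2.51 and Ighv6-3 at 0.88, while Ighv3-6 was at -2.34, Ighv1-61 at -4.30, Ighv5-17 at 3.41, Ighv1-64 at 1.45 and Ighv1-66 at 6.49.

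The spread between mice of the same genotype was large for nearly all members. The SD within genotype of log2(normalized count + 1) had a median of 1.87 over the members and 0.26 over all tested genes, and it was above 1 for 76 of the 78 members and for 4.46% of all tested genes. The median SE of a member's log2 fold change was 1.10. A member's highest library held a median of 42.3% of its value over the 8 libraries, where an even spread would give 12.5% and the median over all tested genes was 15.8%. For 26 of the 78 members, 33.3%, a single library held at least 50%, beside 1.15% of all tested genes. Among the 59 members above 0 in all libraries, the highest library was a median of 41.2 times the lowest, against 1.69 times for tested genes above 0 in all libraries. The extreme was Ighv3-4, a segment of low level in 7 libraries (0 to 6.76) with 988 in KO8. Ighv1-75 was less extreme, with 1925 in WT8 and 0 to 215 elsewhere. WT8 held 74.1% of the value of Ighv1-75, while KO8 held 98.3% of that of Ighv3-4. Ighv3-4, Ighv1-75, Ighv7-1, Ighv7-4 and Ighv1-52 were singled out after their values were seen.

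**Figure D4:**
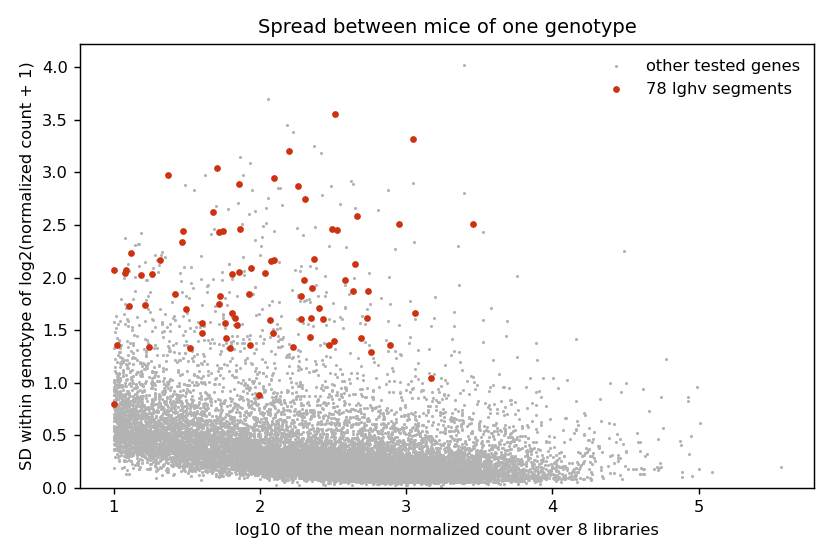
SD within genotype of log2(normalized count + 1) against the log10 mean normalized count, for the 78 members (red) and all other tested genes (grey). The members lie between 0.80 and 3.56, above most genes of the same mean.

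Usage was compared between pairs of libraries as the shared usage, the sum over segments of the smaller of the 2 shares. The 6 pairs of WT libraries shared 21.0% to 44.2% (median 33.2%), the 6 pairs of KO libraries 35.4% to 67.0% (median 46.2%) and the 16 mixed pairs 20.1% to 51.8% (median 44.5%). The pair with the most in common was KO4 and KO5, the libraries with high B cell genes, at 67.0%. The other KO pairs reached at most 51.1%, within the range of the mixed pairs. Pairs share libraries and are not independent, and no test was made on them.

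**Figure D5:**
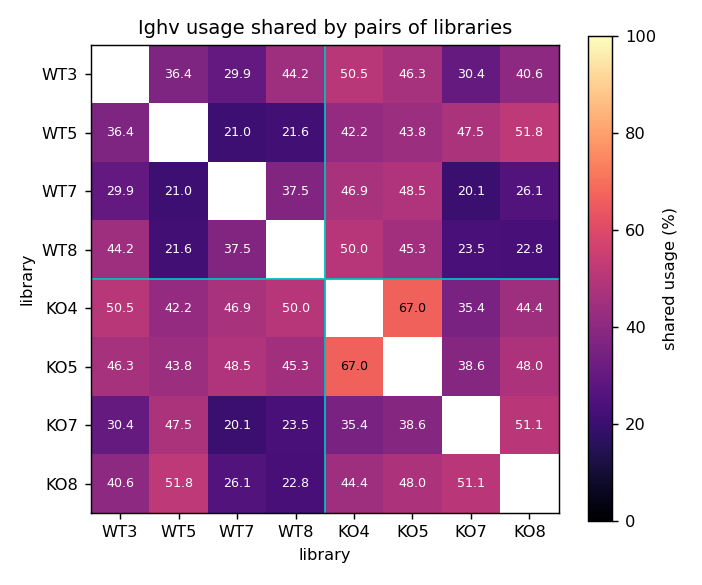
Shared Ighv usage (%) of each pair of libraries, with lines between the genotypes. KO4 and KO5 share 67.0%, and all other pairs lie between 20.1% and 51.8%.

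The constant genes give the classes of heavy chain RNA that were present. Igha, for IgA, had 66455, 103960, 72522 and 43311 in WT and 67835, 84333, 95796 and 68546 in KO (limma log2 fold change 0.20, SE 0.27, adjusted p = 0.899). It held 99.1% to 99.6% of the summed constant value in 6 libraries, but 89.8% in KO4 and 93.7% in KO5. In those 2 libraries Ighm, for IgM, had 4018 and 2887 against 162 to 572 in the other 6, and Ighd, for IgD, had 2212 and 1212 against 11.1 to 44.7. Ighg2b, Ighg2c and Ighg3, for IgG subclasses, were also highest in KO4 and KO5, with 1019 and 1121 against 52.4 to 87.4 for Ighg2b, 205 and 143 against 5.95 to 18.8 for Ighg2c, and 182 and 216 against 2.27 to 38.1 for Ighg3. Ighg1 differed in this, with 257 in KO7, 185 in WT5 and 2.21 to 117 elsewhere. Ighe, for IgE, was listed at 0 in all libraries. Of the 8 heavy constant genes 7 were tested and 0 called, and all 7 had a log2 fold change above 0 (median 2.06). Without KO4 and KO5, 5 were above 0 and 2 below (median 0.25).

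Further genes of the pathway were taken from lists. Of 14 plasma cell genes, 0 were called, 11 had a log2 fold change above 0 and 3 below, with a median of 0.24 (9 and 5, median 0.05, without KO4 and KO5). Xbp1, a transcription factor of the secretory programme, had means of 4621 ± 1000.54 and 4858 ± 386 (SD, n = 4 each). Sdc1, the plasma cell surface marker that enterocytes also express, had 5978 ± 932 and 5698 ± 1146. Jchain, which links IgA dimers, had 17556 ± 4520 in WT and 19650 ± 3005 in KO, and Pigr, the receptor that carries IgA across the epithelium, 16493 ± 2711 and 15820 ± 2705. Of 15 B cell and follicle genes, 0 were called and all 15 were above 0 with a median of 2.06, and each of them was highest in KO4 and KO5. Without these libraries 9 of them had a mean of at least 10, with 4 above 0 and 5 below (median -0.17). Of 4 tested germinal centre genes 4 were above 0 (median 0.43) and 0 called, and without KO4 and KO5 3 were above 0 (median 0.16). The sum over the 6 genes of the germinal centre list was 634 to 734 in WT and 1140, 908, 894 and 782 in KO4, KO5, KO7 and KO8, so every KO library was above every WT library. Of 11 tested genes of recombination and class switching, 3 were above 0 and 8 below (median -0.06), 0 called. Rag1 and Rag2, the recombinase that joins V, D and J, were at 0 in all WT libraries except for 0.828 of Rag1 in WT8, and at most 6.01 in KO. All 6 T cell genes were above 0 and all 5 enterocyte genes below, 0 called. Without KO4 and KO5, 4 of the 6 T cell genes (median 0.31) and 3 of the 5 enterocyte genes (median 0.07) were above 0. Over all libraries, summed enterocyte values were 115547 to 204907 in WT and 89429, 100199, 192762 and 155766 in KO4, KO5, KO7 and KO8. The part of these cell types in the effective number of segments was not tested.

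The kappa light chain, recombined separately in the same cells, allows a parallel reading. The effective number of Igkv segments was 13.9, 14.01, 2.20 and 10.9 in WT and 16.3, 11.1, 10.3 and 13.2 in KO, and the groups overlapped. WT7 was again the lowest library. There Igkv1-117 held 67.0% of the summed Igkv value, beside the 63.7% that Ighv1-81 held of the heavy chain sum. In WT3, WT5 and WT8, Igkv1-117 held 15.4%, 13.3% and 10.1% where Ighv1-81 held 7.89%, 0.258% and 18.4%. In KO4, KO5, KO7 and KO8, Igkv1-117 held 6.16%, 26.7%, 2.83% and 14.1% where Ighv1-81 held 17.9%, 19.5%, 1.68% and 2.56%. Outside WT7, KO5 was the highest library for both, and the next highest was WT8 for Ighv1-81 and WT3 for Igkv1-117. Of 72 tested Igkv segments, 50 were above 0 (median 0.80) and the median SD within genotype was 1.83. The single gene that limma called among all tested genes was Igkv10-96, with 166, 179, 235 and 280 in WT and 792, 1054, 797 and 974 in KO (log2 fold change 2.09, SE 0.18, adjusted p = 0.0237).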

How the data were processed

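Per the labels' protocols, total RNA of ileum was made into poly(A)-selected, strand-specific libraries. Tools in the submitters' processing notes are HISAT2, SAMtools, featureCounts (Subread) and DESeq2, with build GRCm38. No source used here gives their order, versions or settings. The authors deposited normalized counts, a signal equal to counts over 1 size factor per library (0.821 to 1.33). All values, 100%, came out as whole reads within 0.01. The members and gene lists were chosen with earlier results of these data known. The segments named are the 12 of highest mean, those leading a library, and the 4 of smallest p in each direction. The 16352 genes of mean 10 or more entered limma 3.58.1 in R 4.3.3 on log2(value + 1), without covariates, with Benjamini-Hochberg adjustment over all of them. Alternatives were edgeR 4.0.16 and DESeq2 1.42.0 on recovered reads, pseudocounts of 0.5 and 5, a mean of at least 50 or no minimum, TMM and quantile scaling, an adjusted p under 0.1, and left-out libraries. Identities were computed with Biopython 1.88 on GENCODE M21 transcripts. Nothing states whether counting used strand. A limit of 3 reads was taken for a value of 0.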

Additional observations from a re-analysis of the deposited data

Results flagged for a closer look

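In 8 of 46 groups of 4 libraries examined, 1 library lay farther from the other 3, relative to the range of all 4, than Dixon's 95% limit allows. For normally distributed values chance alone passes that limit in about 1 in 20 groups, a rate that need not hold for these untransformed values. The segments examined were also chosen in part for a high mean or for leading a library. An outlying library is thus built into that choice, and the count is not evidence of an excess over chance. The largest Ighv share of a library was 63.7% in WT7, against 18.2% to 24.1% in the other WT libraries. In WT5, Ighv9-3 had 4081 normalized counts (next highest WT library 440), Ighv5-17 had 5103 (136) and Ighv1-9 had 2883 (204). In WT3, Ighv1-5 had 2687 (next highest 121) and Ighv2-6-8 had 86.2 (5.79). Among the KO libraries, Ighv7-3 had 2523 in KO5 (next highest 559) and Ighv1-66 had 3060 in KO7 (509).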

How the results depend on the processing

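The count of Ighv segments called was 0 in each direction under every alternative, though DESeq2 gave no p-value for some of them. Among all tested genes, 1 was called higher in KO with all libraries, 8 by DESeq2, 0 without KO4 and KO5, and 0 to 1 when each library was left out in turn (1 without WT8, 0 without any other). The count called lower was 0, 1 by DESeq2 and 1 without KO4 and KO5. Across the alternatives, the log2 ratio of the sums ran from 0.01 to 0.42 and the difference in effective number from 5.15 to 8.49. The difference in Ighv1 share ran from -9.01 to 6.05 percentage points, so its sign changed. These shifts were below the SD between mice, but leaving out 1 of 4 libraries cannot move a difference of means that far. That comparison therefore does not show the scores to be stable. Values per length were chosen after seeing the data.

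Of the 18 named segments, 13 kept the direction of their log2 fold change under all alternatives run. Ighv1-81 turned with a pseudocount of 5 (-0.012), edgeR (-0.80), DESeq2 (-0.81) and without KO4 and KO5 (-1.58), and ran from -1.35 to 1.06 with each library left out. Ighv9-3 turned with edgeR and DESeq2 (-0.20 each), as did Ighv5-17 (-0.56 each). Without KO4 and KO5, Ighv1-26 was at -0.13 and Ighv1-5 at 0.24, and Ighv1-5 ran from -1.47 to 0.60 with each library left out. The causes were not tested. Across the fits, the share of segments above 0 ran from 48 of 78 by edgeR and DESeq2 to 68 of 77 without KO7.

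The column names of both genotypes carry the numbers 5, 7 and 8, which nothing ties to a litter, batch or day or to the numbers in the labels. Same-numbered libraries did not deviate together from their group means (correlations over genes of 0.015, 0.042 and -0.21). A replicate block on these numbers over 6 libraries, chosen after seeing the data, called 0 genes higher and 0 lower and 0 Ighv segments. The smallest adjusted p of an Ighv segment was 0.509 in that limma fit, against 0.849 in the main fit. Ighv1-81 was at -0.49 and Ighv1-5 at 0.66. With 1 library of each genotype per number, such fold changes move through leaving out WT3 and KO4, not through the block. The median SE of a member was 1.10 on the log2 scale, and a value of 0 allows 2.25 to 3.65 normalized counts.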
